A study of Mus musculus with 12 samples.

Results

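*Adora2a*, *Cd38* and *Upp1* are 3 of the 124 NF-κB-dependent genes for which expression was deposited from *N4bp1*+/+ (wild-type) and *N4bp1*-/- (N4bp1 KO) peritoneal macrophages. They were taken by gene symbol as the genes of adenosine, NAD and uridine metabolism in that list. Each symbol had 1 row in each of the 3 deposited sheets. The genes were chosen by their measured values as well as by function. *Adora2a* was selected on its far higher level after LPS than after R848, and *Cd38* and *Upp1* were already known from these data to be higher in *N4bp1*-/- cells. The values below are therefore descriptions.

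Macrophages were elicited with thioglycollate in C57BL/6J mice and recovered from the peritoneal cavity. Wild-type and *N4bp1*-/- cells were each left untreated or stimulated for 2 h with R848 at 20 ng/ml, which activates TLR7, or with LPS at 10 ng/ml, which activates TLR4. The *N4bp1*-/- mice carry a small CRISPR-Cas9 deletion in every tissue, and all groups share the C57BL/6J strain. Each of the 6 groups held cells of 2 mice, for 12 libraries in all. The study used young adult mice of both sexes, and the sex and age of the animals behind each library are not stated. *N4bp1* itself is not among the 124 genes, so the deletion was not checked at the RNA level here. Of 7 macrophage markers only *Spi1*, a lineage transcription factor, had values, at 154 to 388 FPKM over the 6 groups.

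The 3 genes act at different points of nucleotide and nucleoside handling. *Adora2a* encodes the A2A adenosine receptor, which raises cyclic AMP in response to extracellular adenosine and is known to restrain cytokine production by activated macrophages. *Cd38* encodes a membrane enzyme that consumes NAD and produces ADP-ribose and cyclic ADP-ribose. *Upp1* encodes uridine phosphorylase 1, which splits uridine into uracil and ribose 1-phosphate. Inflammatory stimuli are known to induce each of these genes in myeloid cells. Of 11 genes listed for adenosine signaling and turnover, 13 for NAD use and synthesis and 12 for uridine and pyrimidine salvage, only these 3 were among the 124, 1 from each list. Receptors, transporters and enzymes that work beside them were not analysed here.

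*Adora2a* (ENSMUSG00000020178) lies on the plus strand of chromosome 10 of mm10, from 75316877 to 75334784, with no other annotated gene in the deposited interval. *Cd38* (ENSMUSG00000029084) lies on the plus strand of chromosome 5, from 43868553 to 43912375. That interval also holds the annotated noncoding genes *Gm16014*, on the same strand within an intron, and *Gm16015*, antisense. The libraries were stranded, but whether strand was used in counting is not stated, so reads of *Gm16015* cannot be told apart from those of *Cd38*. *Upp1* (ENSMUSG00000020407) lies on the plus strand of chromosome 11, from 9118103 to 9136170, with no other annotated gene in the interval.

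Promoter sequence is shown for *Upp1*, of the 3 genes the one furthest above wild type in *N4bp1*-/- cells under both stimuli. RefSeq promoter entries (GRCm38.p6) matched 2 of the 3 genes, with 1 start for *Cd38* and 3 for *Upp1*. The sequence is the 250 bases before the most upstream RefSeq start of *Upp1*, chr11:9117758-9118007, plus strand, 5′ to 3′, and the capitals mark a match to the AP-1 motif.
Upp1: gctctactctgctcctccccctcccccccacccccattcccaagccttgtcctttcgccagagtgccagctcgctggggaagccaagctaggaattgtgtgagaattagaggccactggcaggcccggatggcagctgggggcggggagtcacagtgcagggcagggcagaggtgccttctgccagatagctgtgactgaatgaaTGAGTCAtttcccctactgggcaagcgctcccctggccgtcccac
The match ends 39 bases before that start. The 250 bases before each start were searched on both strands for the κB consensus, for the AP-1 motif TGANTCA, for the cyclic AMP response element TGACGTCA and for the core of the interferon-stimulated response element. The AP-1 match is the single match before this start, and the same site is in the overlapping window of the second start of *Upp1*. No motif matched before the third start or before the *Cd38* start. The *Cd38* window lies within the annotated gene, downstream of its annotated start, and is not printed. Of 32851 RefSeq promoter windows of the same length, 6.75% hold the AP-1 motif, 7.25% the κB consensus, 2.98% the interferon-stimulated core and 1.55% the cyclic AMP element. These matches describe the letters in the window and are not evidence of binding.

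Expression is given as the authors' mean FPKM, the number of fragments scaled to transcript length and to the mapped fragments of the library, with 1 value for both mice of a group. Because FPKM is scaled to transcript length, levels of different genes can be set side by side. No value of a single mouse was used here, so the spread between mice is unknown. No difference below was tested, and no order of neighboring levels can be judged against replicate error. The fold changes are ratios of 2 such means, and a fold of at least 2 serves as the mark for a gene counted as higher or lower. Depth per library is unknown for the same reason.

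*Adora2a* was high after LPS and low in every other group. In *N4bp1*+/+ macrophages its mean level was 1.48 FPKM unstimulated, 2.74 FPKM after R848 and 93.9 FPKM after LPS. In *N4bp1*-/- macrophages the levels were 3.32, 3.33 and 89.9 FPKM. Both LPS groups thus stood far above the other 4 groups, which lay between 1.48 and 3.33 FPKM. From highest to lowest, the order was *N4bp1*+/+ with LPS, *N4bp1*-/- with LPS, *N4bp1*-/- with R848, *N4bp1*-/- unstimulated, *N4bp1*+/+ with R848 and *N4bp1*+/+ unstimulated. Neighbors in this order were 1.00- to 1.85-fold apart, except for the 27.0-fold step between *N4bp1*-/- cells with LPS and with R848. In bulk RNA a smaller number of expressing cells and less RNA per cell cannot be told apart.

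*Cd38* was high after both stimuli and higher in *N4bp1*-/- cells in every treatment. Its mean levels in *N4bp1*+/+ macrophages were 1.70 FPKM unstimulated, 65.5 FPKM after R848 and 63.1 FPKM after LPS. The corresponding levels in *N4bp1*-/- macrophages were 5.31, 124.6 and 110.2 FPKM. The stimulated *N4bp1*-/- groups were the top pair, followed by the stimulated *N4bp1*+/+ groups and then the unstimulated cells. *N4bp1*-/- cells after R848 stood 1.13-fold above *N4bp1*-/- cells after LPS, and the stimulated *N4bp1*+/+ groups were 1.04-fold apart. The lower stimulated group was 11.9-fold above the higher unstimulated one.

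*Upp1* had the lowest level of the 3 genes in each group except those given R848, where it was above *Adora2a* in both genotypes. Its mean levels in *N4bp1*+/+ macrophages were 0.211 FPKM unstimulated, 3.08 FPKM after R848 and 7.43 FPKM after LPS. In *N4bp1*-/- macrophages the levels were 0.589, 13.2 and 20.7 FPKM. Among the 124 listed genes *Upp1* ranked between 90th and 99th by level in each group, so it was a low-abundance transcript of this list throughout. *Cd38* ranked between 47th and 77th, and *Adora2a* moved from 104th in *N4bp1*-/- cells after R848 to 56th in *N4bp1*+/+ cells after LPS.

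**Figure D1:**
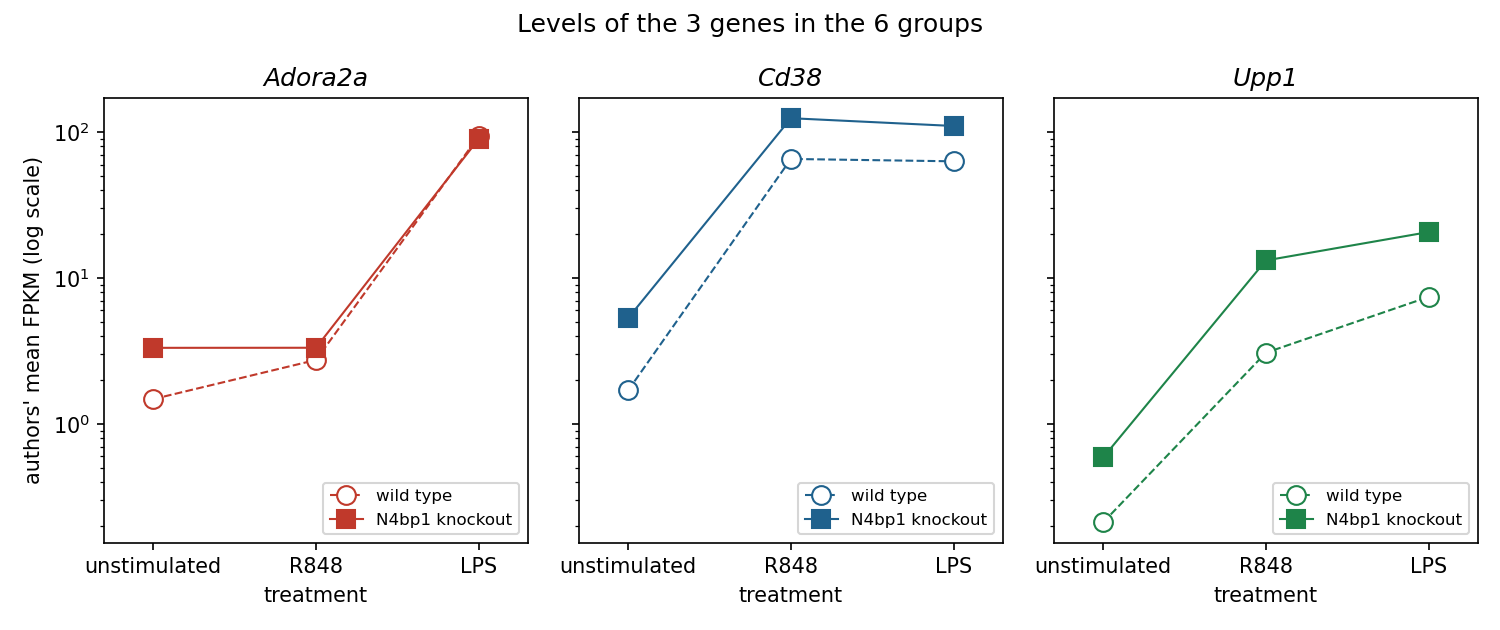
Mean FPKM of *Adora2a*, *Cd38* and *Upp1* (log scale) in unstimulated, R848-treated and LPS-treated macrophages. Each point is the authors' mean over 2 mice, open circles are wild type, filled squares are *N4bp1* knockout, and no error can be drawn; *Adora2a* is at 1.48 to 3.33 FPKM in 4 groups and at 89.9 and 93.9 FPKM after LPS.

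The effect of each stimulus was then compared within a genotype. The scaling between treatments is not stated, and unstimulated libraries have names of another series than the stimulated ones, so a batch cannot be told apart from the stimulus. The list was also drawn up by the authors as NF-κB-dependent, and nearly all of it is higher after stimulation. After R848, 2 of the 3 genes were at least 2-fold higher than unstimulated in *N4bp1*+/+ cells, against 99.2% of the listed genes. *Adora2a* was the exception, at a log2 ratio of 0.89, or 1.85-fold, which is −2.27 relative to the median listed gene. It had the smallest R848 ratio of the 124 genes and was the one gene of the list under 2-fold in this comparison. The next smallest was that of *Bcl2l11*, an apoptosis activator, at 2.06-fold. The median listed gene was 8.94-fold higher.

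In *N4bp1*-/- cells *Adora2a* had the same level with and without R848, a log2 ratio of 0.00. Of 123 genes with a ratio, 95.9% were at least 2-fold higher, as were *Cd38* and *Upp1*. *Adora2a* ranked 122nd, above *Hamp*, the gene of the iron regulator hepcidin, whose log2 ratio was −0.56. That ratio rests on very low levels, 0.0876 FPKM unstimulated and 0.0594 FPKM after R848. *Il23a* was listed at 0 FPKM in unstimulated *N4bp1*-/- cells and has no ratio there.

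*Cd38* was 38.5-fold higher after R848 than unstimulated in *N4bp1*+/+ cells (log2 ratio 5.27) and 23.4-fold in *N4bp1*-/- cells (4.55). *Upp1* was 14.5-fold higher in *N4bp1*+/+ cells (3.86) and 22.4-fold in *N4bp1*-/- cells (4.49). The R848 ratio of *Cd38* was thus smaller in *N4bp1*-/- cells and that of *Upp1* was larger. The unstimulated level of both genes was higher in *N4bp1*-/- cells. With 1 FPKM added to every value, the log2 ratios in *N4bp1*+/+ and *N4bp1*-/- cells were 4.62 and 4.31 for *Cd38* and 1.75 and 3.16 for *Upp1*.

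After LPS all 3 genes were at least 2-fold higher than unstimulated in both genotypes, against 91.1% of the listed genes in *N4bp1*+/+ and 86.2% in *N4bp1*-/- cells. *Adora2a* was 63.5-fold higher in *N4bp1*+/+ cells (log2 ratio 5.99) and 27.1-fold in *N4bp1*-/- cells (4.76). *Cd38* was 37.1-fold higher in *N4bp1*+/+ cells (5.21) and 20.7-fold in *N4bp1*-/- cells (4.37). *Upp1* was 35.1-fold higher in both (5.13 and 5.13). This equality rests on unstimulated levels below 1 FPKM, and with 1 FPKM added to every value the log2 ratios of *Upp1* were 2.80 in *N4bp1*+/+ and 3.77 in *N4bp1*-/- cells. Those of *Adora2a* were then 5.26 and 4.39, and those of *Cd38* 4.57 and 4.14. The median listed gene was 13.2-fold higher in *N4bp1*+/+ and 8.93-fold higher in *N4bp1*-/- cells, so all 3 stood above the median, with ranks between 28th and 39th.

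**Figure D2:**
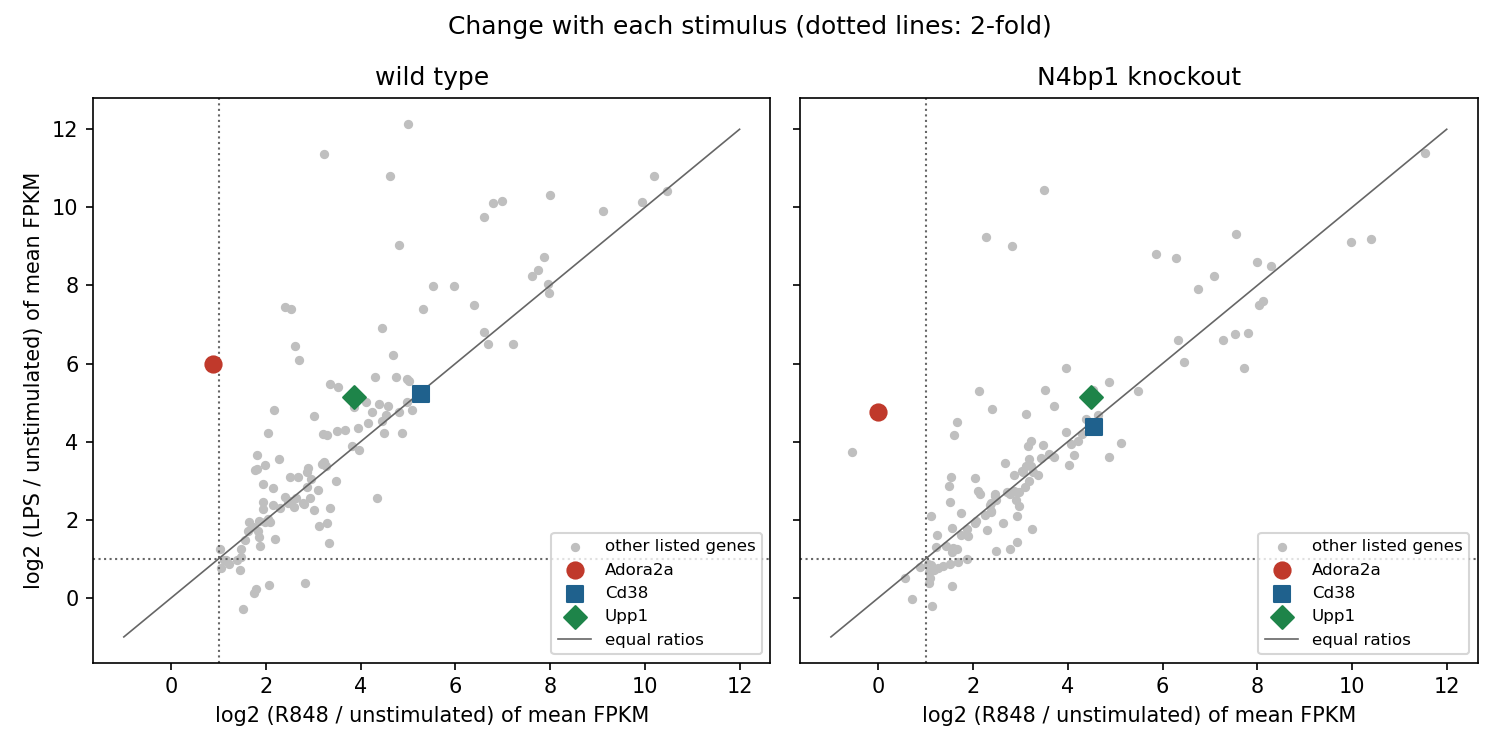
Log2 ratio of mean FPKM after R848 (x axis) and after LPS (y axis) to unstimulated cells, for wild-type (left) and *N4bp1* knockout (right) macrophages; both axes share the unstimulated mean. Each gray point is a listed gene, the line marks equal ratios and the dotted lines mark 2-fold. *Adora2a* lies at 0.89 and 5.99 in wild type and at 0.00 and 4.76 in knockout, left of the 2-fold line in both, while *Cd38* lies near the line of equal ratios and *Upp1* lies above it, at 3.86 and 5.13 in wild type.

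The stimuli were also set directly against each other. *Adora2a* was 34.2-fold higher after LPS than after R848 in *N4bp1*+/+ cells and 27.0-fold higher in *N4bp1*-/- cells. This is the contrast on which it was chosen. It ranked 4th of 124 in both genotypes, behind *Cxcl10*, *Mx2* and *Mx1*, a chemokine and antiviral proteins that interferons induce. In *N4bp1*+/+ cells the third of these, *Mx1*, was 72.5-fold higher after LPS, and the gene just below *Adora2a* was *Cxcl9*, at 33.0-fold. In *N4bp1*-/- cells the gene just below was *Hamp*, at 19.8-fold, from 0.0594 FPKM after R848 to 1.18 FPKM after LPS.

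*Upp1* was 2.41-fold higher after LPS than after R848 in *N4bp1*+/+ cells and 1.57-fold higher in *N4bp1*-/- cells. *Cd38* was at 0.96 of its R848 level in *N4bp1*+/+ cells and at 0.88 in *N4bp1*-/- cells. At least 2-fold higher after LPS were thus *Adora2a* and *Upp1* in *N4bp1*+/+ cells, against 25.8% of the listed genes, and *Adora2a* alone of the 3 in *N4bp1*-/- cells, against 16.9%. Of 11 interferon-inducible genes, 10 were at least 2-fold higher after LPS than after R848 in each genotype. All 11 are among the deposited genes, and they were chosen with earlier results of these data known, so this count is a description. Their median log2 ratio was 3.16 in *N4bp1*+/+ and 2.45 in *N4bp1*-/- cells, beside medians of 0.22 and −0.11 over all listed genes. The 11th, *Psme2*, a proteasome activator subunit, was 1.44-fold higher in *N4bp1*+/+ and 1.35-fold higher in *N4bp1*-/- cells.

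The 3 cytokines whose production A2A receptor stimulation is known to lower (*Tnf* and *Il12p40*) or raise (*Il10*) in macrophages were all under 2-fold higher after LPS than after R848. In *N4bp1*+/+ cells the LPS level was 1.07 times the R848 level for *Tnf*, 1.72 times for *Il12p40* and 0.96 times for *Il10*. In *N4bp1*-/- cells these values were 0.69, 0.43 and 0.58. *Il12p40* was thus at least 2-fold lower after LPS there, as were 12 of the 124 listed genes with it included.

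*N4bp1*-/- and *N4bp1*+/+ cells were compared within each treatment, the comparison for which the experiment was designed. Without stimulus all 3 genes were at least 2-fold higher in *N4bp1*-/- cells, against 35.0% of 123 listed genes. *Adora2a* was 2.25-fold higher (log2 ratio 1.17), *Cd38* 3.13-fold (1.65) and *Upp1* 2.78-fold (1.48). These ratios rest on low levels, from 0.211 to 5.31 FPKM. The median log2 ratio of the listed genes was 0.53. Relative to that median, the values were 0.64 for *Adora2a*, 1.12 for *Cd38* and 0.95 for *Upp1*, which leaves *Adora2a* and *Upp1* under 2-fold. With 1 FPKM added to every value, *Adora2a* and *Upp1* were likewise under 2-fold (0.80 and 0.39). The background depended on the same low values. Of the listed genes 43 were at least 2-fold higher as deposited, 27 with a minimum of 1 FPKM in either group and 16 with 1 FPKM added.

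After R848, *Upp1* alone of the 3 was at least 2-fold higher in *N4bp1*-/- cells, against 25.0% of the listed genes. Its ratio was 4.29-fold (log2 ratio 2.1), the 6th highest of 124. *Cd38* was 1.90-fold higher (0.93) and ranked 33rd. *Adora2a* was 1.21-fold higher (0.28), which equals the median listed gene, also at 0.28, and it ranked 63rd.

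After LPS, *Upp1* was again the one gene of the 3 at least 2-fold higher in *N4bp1*-/- cells, at 2.78-fold (1.48, rank 11th), against 16.1% of the listed genes. *Cd38* was 1.75-fold higher (0.80, rank 23rd). *Adora2a* was at 0.96 of its *N4bp1*+/+ level (−0.06, rank 59th), or at 0.03 relative to the median listed gene, which was at −0.09. With a fold of 1.5 as the mark, *Cd38* joined *Upp1* after both stimuli, against 33.9% of the listed genes after R848 and 21.0% after LPS.

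**Figure D3:**
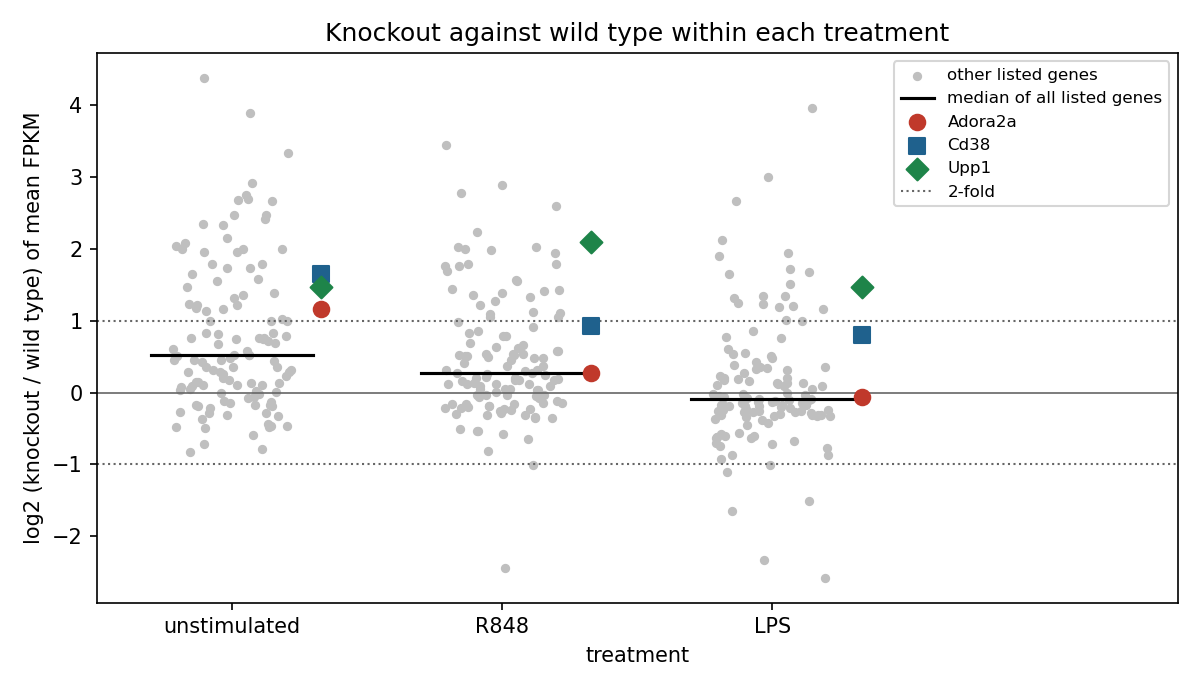
Log2 ratio of mean FPKM in *N4bp1* knockout to wild-type macrophages (y axis) for each listed gene (gray) in unstimulated, R848-treated and LPS-treated cells (x axis, points spread sideways for visibility). Black bars are medians of all listed genes, dotted lines mark 2-fold. *Upp1* is above 2-fold in all 3 treatments (1.48, 2.1 and 1.48), and *Adora2a* is at 1.17 unstimulated, at 0.28 after R848 and at −0.06 after LPS.

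As differences of level the same comparison has another shape. *Cd38* was higher by 3.62 FPKM in unstimulated *N4bp1*-/- cells, by 59.1 FPKM after R848 and by 47.1 FPKM after LPS. *Upp1* was higher by 0.377, 10.1 and 13.2 FPKM. *Adora2a* was higher by 1.84 and 0.583 FPKM without stimulus and after R848, and lower by 3.99 FPKM after LPS, where its level was highest (−3.99 FPKM for *N4bp1*-/- minus *N4bp1*+/+).

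The log2 ratio of *N4bp1*-/- to *N4bp1*+/+ was also compared between treatments. From unstimulated to R848-treated cells it was lower by 0.89 for *Adora2a* (difference −0.89) and by 0.72 for *Cd38* (−0.72), and higher by 0.62 for *Upp1*. The median listed gene had a difference of −0.19, with 43 genes above 0 and 80 below. From unstimulated to LPS-treated cells the difference was −1.23 for *Adora2a*, −0.84 for *Cd38* and −0.00 for *Upp1* (from unstimulated levels below 1 FPKM), beside a median of −0.51, with 23 genes above 0 and 100 below. From R848 to LPS it was −0.34 for *Adora2a*, −0.12 for *Cd38* and −0.63 for *Upp1*, beside a median of −0.27. *Upp1* thus ranked 13th and 24th of 123 genes in the first and second of these differences, and *Adora2a* 102nd and 101st. Both differences use the same unstimulated means.

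Setting knockout cells beside wild-type cells of another treatment gives a scale for these ratios. The level of *Adora2a* in unstimulated *N4bp1*-/- cells was 1.21 times that in R848-treated *N4bp1*+/+ cells. For *Cd38* and *Upp1* the unstimulated *N4bp1*-/- level was 8.12% and 19.1% of the R848-treated *N4bp1*+/+ level. R848-treated *N4bp1*-/- cells stood above LPS-treated *N4bp1*+/+ cells for *Cd38* (1.97 times) and *Upp1* (1.78 times), whereas for *Adora2a* they had 3.54% of that level.

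The profiles over the 6 groups were compared after log2 FPKM was centered on each gene's own mean, by Euclidean distance over the 6 means. The 6 groups are built from 2 genotypes and 3 treatments and are not independent points, so these likenesses are descriptions. *Cd38* and *Upp1* had a distance of 1.46 (r = 0.97 over 6 groups). *Adora2a* was at 5.58 from *Cd38* and at 4.76 from *Upp1*. The 5 listed genes nearest to *Adora2a* were *Serpina3f*, a protease inhibitor (distance 2.17), *Cxcl9*, an interferon-induced chemokine (2.31), *Hamp* (2.45), *Tapbp*, the antigen-loading chaperone tapasin (2.77), and *Serpina3g* (3.15). Its median distance to the 122 other genes with a profile was 5.27. *Serpina3f* and *Serpina3g* belong to a family of near copies, so the division of reads between them is uncertain. *Serpina3f*, *Cxcl9* and *Hamp* were each below 1 FPKM in unstimulated cells of both genotypes. After R848, *Serpina3f* and *Hamp* were below 1 FPKM in both genotypes and *Cxcl9* in *N4bp1*+/+ cells. *Serpina3g* was below 1 FPKM in *N4bp1*+/+ cells without stimulus and after R848.

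The genes nearest to *Cd38* were *Traf1*, an adapter of TNF receptor signaling (distance 0.73), the survival gene *Bcl2a1a* (0.99), *Inhba*, the activin A subunit (1.06), *Olr1*, an oxidized lipoprotein receptor (1.17), and *Nfkbia*, which encodes IκBα (1.27). *Bcl2a1a* has near copies, and its row shares a deposited interval with that of *Bcl2a1d*. The median distance of *Cd38* to the other genes was 3.23. Like *Cd38*, *Traf1* had nearly the same level after either stimulus, at 128.7 and 132.7 FPKM in *N4bp1*+/+ and 180.0 and 184.4 FPKM in *N4bp1*-/- cells. *Olr1* was lower after LPS than after R848. It had 109.3 and 69.8 FPKM after R848 and LPS in *N4bp1*+/+ cells, and 136.4 and 89.0 FPKM in *N4bp1*-/- cells.

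The genes nearest to *Upp1* were *Ptges*, prostaglandin E synthase (distance 1.42), *Cd38* (1.46), *Inhba* (1.5), *Traf1* (1.71) and *Sdc4*, a heparan sulfate proteoglycan (1.76), beside a median of 3.43. *Ptges* had 40.5 and 165.9 FPKM in *N4bp1*+/+ and *N4bp1*-/- cells after R848 and 33.4 and 145.8 FPKM after LPS. Like *Upp1*, it was thus more than 2-fold higher in *N4bp1*-/- cells after either stimulus. Of the listed genes, 25.0% were at least 2-fold higher in *N4bp1*-/- cells after R848 and 16.1% after LPS. None of the other genes nearest to *Upp1* was at least 2-fold higher in *N4bp1*-/- cells after LPS. The choice of neighbors depended on low values: with 1 FPKM added, 1 of these 5 and 3 of the 5 of *Adora2a* remained among the nearest 5.

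**Figure D4:**
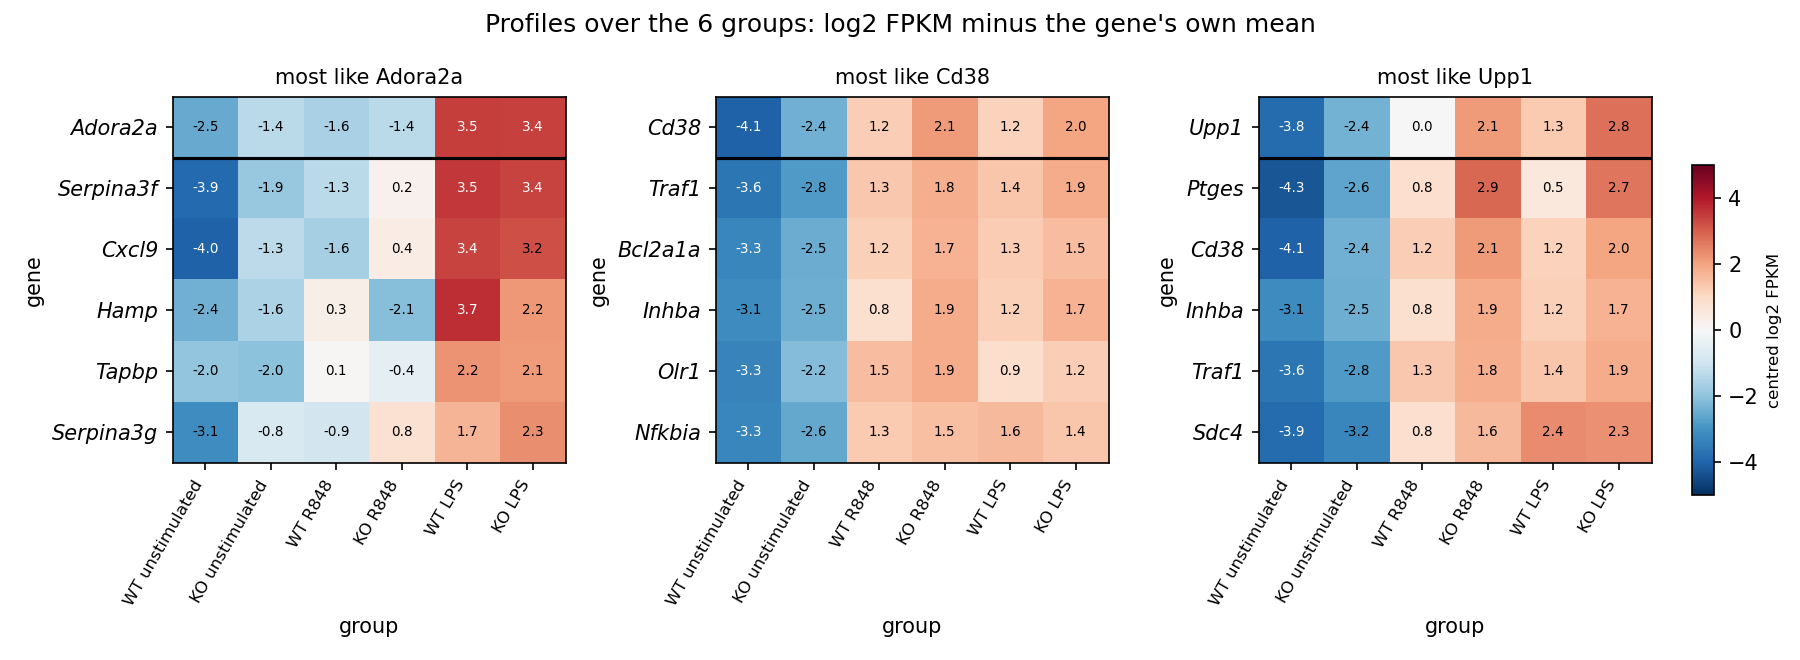
Log2 FPKM minus the gene's own mean over the 6 groups (color and printed value) for *Adora2a*, *Cd38* and *Upp1* (top row of each panel) and the 5 listed genes nearest to each (rows below). Columns are the 6 groups of genotype and treatment, each the authors' mean. *Adora2a* and its neighbors are highest in the LPS groups. The neighbors of *Cd38*, within a distance of 1.27, are high after both R848 and LPS.

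CD38 is also made by B cells and other leukocytes, so markers of other cells were read beside it. Of 4 B cell markers, *Fcer2a* alone was listed, at 0.0322 to 0.303 FPKM, and of 4 T cell markers *Il2ra* alone, at 0.0187 to 0.585 FPKM. Both were highest in *N4bp1*-/- cells after R848, as was *Cd38*. Relative to *N4bp1*+/+ cells, *Fcer2a* was 1.36-fold higher without stimulus, 2.69-fold after R848 and 3.85-fold after LPS. *Il2ra* was 3.99-, 3.39- and 1.10-fold higher. These ratios rest on levels of at most 0.585 FPKM. The summed level of 3 of 5 neutrophil markers was 3.58 FPKM in unstimulated *N4bp1*+/+ and 6.11 FPKM in *N4bp1*-/- cells. It was 36.6 and 75.5 FPKM after R848 and 14.7 and 35.9 FPKM after LPS. At least 2-fold higher in *N4bp1*-/- cells were 2 of the 3 markers without stimulus, 2 after R848 and 3 after LPS. The shares of all listed genes were 35.0%, 25.0% and 16.1%. *Trem1*, a receptor of neutrophils and monocytes, was among them each time, from 0.0271 and 0.205 FPKM in unstimulated *N4bp1*+/+ and *N4bp1*-/- cells. *Lcn2* was at 0.71 of its wild-type level without stimulus and *Mmp9* at 1.07 after R848. *S100a8* and *Ly6g*, the other neutrophil markers of this list, were not analysed here.

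The summed level of 3 of 5 stromal markers was 0.974 and 4.87 FPKM without stimulus, 42.0 and 54.2 FPKM after R848 and 88.4 and 88.2 FPKM after LPS, and after either stimulus most of it was *Vcam1*. All 3 were at least 2-fold higher in *N4bp1*-/- cells without stimulus, against 35.0% of the listed genes. After R848 and after LPS 2 of the 3 (*Sox9* and *Cyp7b1*) were, against 25.0% and 16.1%, at 6.38-fold and 2.24-fold after LPS. These ratios rest on low levels, of at most 1.55 FPKM for *Sox9* and 3.86 FPKM for *Cyp7b1*. The summed level of 4 dendritic cell markers was 32.9 and 25.8 FPKM without stimulus, 472.8 and 321.8 FPKM after R848 and 536.2 and 307.7 FPKM after LPS, and most of it was *Cd83*, which was lower in *N4bp1*-/- cells in each treatment. The other markers of this list had other ratios. *Ccr7*, a chemokine receptor of migrating dendritic cells, was 20.8-fold higher in *N4bp1*-/- cells without stimulus, 7.39-fold after R848 and 8.04-fold after LPS, at levels of at most 2.71 FPKM. *Ccl17* and *Ccl22* were 2.32-fold and 5.53-fold higher without stimulus, at levels of at most 1.01 FPKM there, and at 0.2 and 0.32 of their wild-type levels after LPS. None of the listed markers was at 0 in any group. Single markers of B cells, T cells, neutrophils, stromal cells and dendritic cells were thus higher in *N4bp1*-/- cells together with *Cd38* and *Upp1*. Others, among them *Cd83*, *Ccl17*, *Ccl22* and *Lcn2*, were lower in some or all treatments. All markers with values belong to the NF-κB-dependent list, so RNA per cell cannot be told apart from the number of such cells. The part of other cells in the values of *Cd38* and *Upp1* was not tested.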

How the data were processed

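Poly-A RNA of 12 libraries was sequenced from both ends. Per the labels, the tools in the submitters' processing notes were Cufflinks 2.1.1, TopHat2 2.0.10 and CASAVA 1.8.2, and the build was mm10 (GRCm38). Annotation and read filters were not stated. The authors deposited FPKM values, averaged over both mice of a group, for 124 genes, together with fold changes, test statistics, p-values and q-values of their own comparison, which were not used. No table of single libraries was used.

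Groups follow the labels of genotype and treatment. Log2 ratios were computed from the means with no pseudocount, and a fold of at least 2 was the mark for higher or lower. Percentages of listed genes past that mark are the background of each comparison. Gene positions are from GENCODE and promoters from RefSeq. The named genes are the 3 members, the 5 nearest profiles of each, the genes next to *Adora2a* in the ratio of LPS to R848, and list members. Naming *Bcl2l11*, *Bcl2a1d* and *Il23a* was decided once their values were known. The members and lists were chosen with earlier results of these data known. Alternatives were pseudocounts of 0.1 and 1 FPKM, a fold of 1.5, a minimum of 1 FPKM, leaving out rows that join several genes, and centering on the median listed gene. Counting and profile distances were tested on simulated data. Python 3.11.15, numpy 2.4.6, pandas 2.3.3 and matplotlib 3.10.9 were used.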

Additional observations from a re-analysis of the deposited data

How the results depend on the processing

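Each of the 27 ratios of the 3 genes kept its direction and its side of 2-fold with a pseudocount of 0.1 FPKM. With a pseudocount of 1 FPKM, 25 did. The other 2 were the log2 ratios of *N4bp1*-/- to *N4bp1*+/+ in unstimulated cells of *Adora2a* (0.80) and *Upp1* (0.39). Relative to the median listed gene, 20 did. In unstimulated cells the log2 ratios of *N4bp1*-/- to *N4bp1*+/+ became 0.64 for *Adora2a* and 0.95 for *Upp1*. For *Adora2a* the same ratio became −0.0012 after R848 and 0.0306 after LPS. The log2 ratio of R848 to unstimulated became −2.27 in *N4bp1*+/+ and −2.86 in *N4bp1*-/- cells for *Adora2a*, and 0.70 in *N4bp1*+/+ cells for *Upp1*. By construction this setting subtracts the response of the NF-κB-dependent list itself.

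The count of listed genes at least 2-fold higher in unstimulated *N4bp1*-/- cells was 27 with a minimum of 1 FPKM and 16 with a pseudocount of 1 FPKM, in place of 43. With a fold of 1.5 the count higher after LPS than after R848 in *N4bp1*-/- cells was 32 in place of 21. Of the 5 nearest profiles, 3 for *Adora2a* and 1 for *Upp1* were shared with a pseudocount of 1 FPKM. No paired analysis was possible because the deposited means carry no replicate, and no library could be left out for the same reason. Ratios of levels below 1 FPKM, which include those of unstimulated *Upp1*, are the least certain.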
